A study of Mus musculus with 28 samples.

Results

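The interferon-inducible GTPases described here are 10 genes, the 4 guanylate-binding protein (GBP) genes Gbp2, Gbp3, Gbp5 and Gbp7 and the 6 immunity-related GTPase (IRG) genes Irgm1, Irgm2, Igtp, Iigp1, Ifi47 and Tgtp2. They were taken by symbol from the 40021 genes of the deposited expression table, and all 10 were among the 13164 genes that reached 1 RPKM (a unit that divides the reads of a gene by its transcript length and by the depth of the library) in at least 5 of the 28 retinas and were tested. Microglia, the resident macrophages of the retina, were sorted from single retinas of young adult male heterozygous Cx3cr1CreER:R26-tdTomato (C57BL/6) mice. In this line a tamoxifen-dependent Cre recombinase under the control of the Cx3cr1 gene, which microglia and some other myeloid cells use, switches on the red reporter tdTomato. All groups, naïve included, carried both alleles and received tamoxifen on the eye, and live tdTomato-bright cells were sorted. Endotoxin-induced uveitis (EIU) was induced by lipopolysaccharide (LPS) injected into the vitreous, and the samples were 10 naïve retinas, which received no LPS, and 6, 5 and 7 retinas taken 4 h, 18 h and 2 weeks after injection. Experiment 1 gave 6, 3, 4 and 4 of these retinas and experiment 2 gave 4, 3, 1 and 3. The labels do not say which retinas came from the same mouse, so the p-values measure the spread between retinas.

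GBPs and IRGs are GTP-binding proteins that cells make in quantity after interferon, and they act in the defence of a cell against bacteria and parasites inside it. GBPs assemble on pathogens and on the vacuoles that hold them, and can expose bacterial LPS to inflammasomes. IRGs of the regulator class (Irgm1, Irgm2 and Igtp) sit on the membranes of the cell itself and hold the effector class (Iigp1, Ifi47 and Tgtp2) inactive until a foreign vacuole appears. Type I interferon acts through a complex that holds STAT2 and IRF9 on the interferon-stimulated response element (ISRE), and interferon gamma acts on the gamma-activated site (GAS).

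In GRCm38, with gene positions from GENCODE mouse release M21, the 10 genes lie in 4 places. The 4 GBP genes span 144 kb of chromosome 3 (chr3:142493978-142638008, plus strand). Irgm1, Tgtp2 and Ifi47 span 235 kb of chromosome 11 (chr11:48861968-49096974), and Igtp and Irgm2 lie within 23.2 kb of the same chromosome (chr11:58199556-58222782). Iigp1 lies elsewhere and is placed with its values. The annotated Irgm2 gene overlaps Igtp on the same strand. The values of some members depend on how reads of near-identical copies were divided. Of all stretches of 75 bases in the longest transcript, 85.16% for Tgtp2 also occur in another gene, all of them in its copy Tgtp1. This share was 11.43% for Gbp7, 8.37% for Igtp and 4.28% for Irgm2, and at most 2.68% for the other 6 members. The Tgtp2 value is therefore uncertain with respect to Tgtp1.

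The promoters bear on the interferon response, so the windows of 300 bases around the RefSeq gene start (250 before, 50 after, GRCm38.p6) are shown for the 4 members that rose at 4 h (Gbp2, Gbp3, Gbp5, Irgm1) and for Irgm2, which did not pass the test. Capitals mark matches, on either strand, to the ISRE core GAAANNGAAA or to the GAS TTCNNNGAA. The windows are chr3:142620413-142620712 (Gbp2, plus strand), chr3:142559794-142560093 (Gbp3, plus), chr3:142496684-142496983 (Gbp5, plus), chr11:48871371-48871670 (Irgm1, minus) and chr11:58214727-58215026 (Irgm2, plus).
Gbp2: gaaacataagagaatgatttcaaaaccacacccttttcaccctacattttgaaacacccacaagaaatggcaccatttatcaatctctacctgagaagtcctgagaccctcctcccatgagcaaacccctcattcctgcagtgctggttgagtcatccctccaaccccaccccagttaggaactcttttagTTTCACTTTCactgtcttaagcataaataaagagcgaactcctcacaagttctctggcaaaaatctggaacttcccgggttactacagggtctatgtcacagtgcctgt
Gbp3: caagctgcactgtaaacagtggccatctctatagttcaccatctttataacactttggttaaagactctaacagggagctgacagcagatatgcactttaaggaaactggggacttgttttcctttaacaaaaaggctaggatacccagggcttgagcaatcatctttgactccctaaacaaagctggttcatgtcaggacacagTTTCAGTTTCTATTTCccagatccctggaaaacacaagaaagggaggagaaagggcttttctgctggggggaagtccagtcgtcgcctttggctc
Gbp5: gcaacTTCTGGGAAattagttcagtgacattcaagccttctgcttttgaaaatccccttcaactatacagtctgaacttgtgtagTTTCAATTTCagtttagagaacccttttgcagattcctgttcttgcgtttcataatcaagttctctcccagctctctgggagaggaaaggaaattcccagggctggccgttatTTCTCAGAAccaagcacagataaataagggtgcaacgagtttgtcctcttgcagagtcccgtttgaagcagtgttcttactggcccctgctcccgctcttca
Irgm1: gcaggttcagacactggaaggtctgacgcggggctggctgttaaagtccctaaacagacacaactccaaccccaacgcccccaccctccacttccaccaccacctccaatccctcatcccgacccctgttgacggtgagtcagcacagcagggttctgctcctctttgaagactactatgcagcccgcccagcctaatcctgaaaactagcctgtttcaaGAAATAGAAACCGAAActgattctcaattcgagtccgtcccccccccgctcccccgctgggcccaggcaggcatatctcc
Irgm2: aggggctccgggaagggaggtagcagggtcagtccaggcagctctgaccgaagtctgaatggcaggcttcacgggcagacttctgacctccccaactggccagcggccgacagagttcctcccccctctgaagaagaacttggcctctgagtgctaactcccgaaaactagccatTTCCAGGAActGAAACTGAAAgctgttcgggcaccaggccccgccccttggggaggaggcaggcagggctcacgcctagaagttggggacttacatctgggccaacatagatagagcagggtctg
The RefSeq table held windows for 9 of the 10 members (10 windows, since Gbp3 has a second start). An ISRE core was found in 8 of these 9 members, against 3.44% of the 32851 windows of all genes. A GAS was found in 5 members (Gbp5, Gbp7, Irgm2, Igtp and Tgtp2), all of which also had an ISRE core, against 8.3% of all windows for a GAS and 0.454% for both. The Ifi47 window held neither. These matches are a description of the letters in the windows. Members of a gene family share ancestry, so their windows are not independent.

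In Tgtp2, Igtp and Irgm2 the GAS stood 2 bases before the ISRE core, in one segment of 21 bases at chr11:49064273-49064293 (Tgtp2, minus strand), chr11:58199511-58199531 (Igtp, plus) and chr11:58214902-58214922 (Irgm2, plus). The segments are shown because they are nearly the same in the 3 genes.
Tgtp2: TTCCAGGAAtcGAAACCGAAA
Igtp: TTCTAGGAActGAAACTGAAA
Irgm2: TTCCAGGAActGAAACTGAAA
In Gbp2, by contrast, the single ISRE core began 59 bases before the gene start. In Irgm1 2 overlapping ISRE cores began 30 and 24 bases before the start. Of 8 windows of related GBP and IRG genes outside the 10, 5 held an ISRE core, 3 a GAS and 3 (Gm5431, 9930111J21Rik2 and Irgq) neither. Of these, Tgtp1 and Gm12185 held the same pair of motifs, with ISRE cores at 77 and 75 bases and GAS matches at 88 and 86 bases before the start, and the ISRE core of 9930111J21Rik1 lay 27 bases after it. In Gbp5 the ISRE core began 165 bases and the GAS matches 245 and 52 bases before it.

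**Figure D1:**
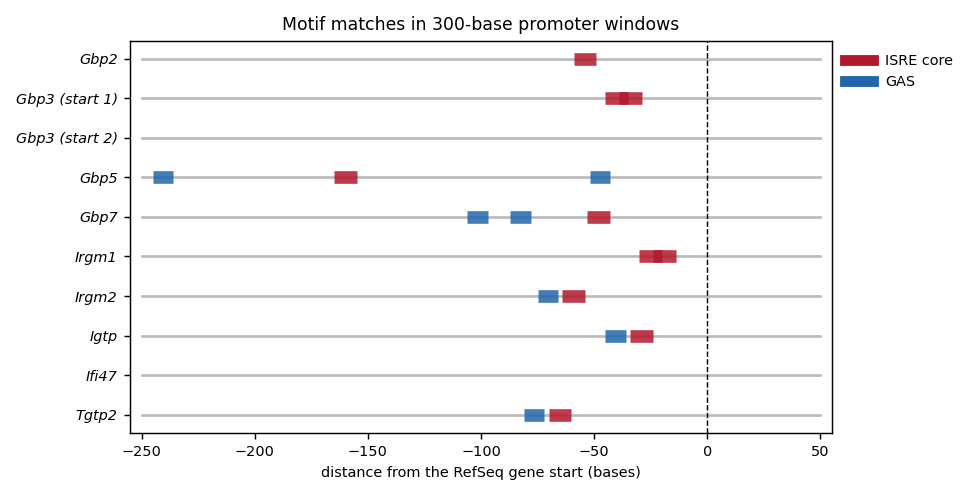
Positions of ISRE core (red) and GAS (blue) matches in the 300-base RefSeq promoter windows of the 9 GTPase genes with a window; the x axis is the distance in bases from the gene start (dashed line) and each grey line is 1 window. In all 8 genes with an ISRE core the matches lie before the gene start, and the lines of Ifi47 and of the second Gbp3 start carry none.

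The retinas had between 7510000 and 19700000 alignments. For the members, 1 read was worth from 0.00904 RPKM (Gbp7 in the deepest retina) to 0.0751 RPKM (Ifi47 in the shallowest), so values well below 1 RPKM rest on few reads. Values of exactly 0 need care. In experiment 1, between 0 and 65 of the genes with a median of at least 20 RPKM over all retinas were listed at 0 in a naïve retina, whereas none was in the 4 naïve retinas of experiment 2. A member was listed at 0 in 5 of 10 naïve, 0 of 6 4 h, 1 of 5 18 h and 4 of 7 2-week retinas, all of them of experiment 1. Groups are therefore given by their lowest, median and highest value. The microglial markers P2ry12, Tmem119, Siglech, Cx3cr1, Csf1r, Fcrls and Aif1 summed to at least 563 RPKM in every retina.

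At 4 h after LPS, 3 GBPs had the largest estimated changes of the 10 members. Gbp2, Gbp3 and Gbp5 rose and all 6 of their 4 h values lay above all 10 naïve values, while Irgm1 was the only IRG to pass the test and the effector IRGs spread widely between retinas. Genes counted as differentially expressed (DEGs) when their limma p, adjusted by Benjamini-Hochberg over all 13164 genes, was 0.05 or lower and they changed 2-fold or more. By this rule 4 of the 10 members were up-regulated and none was down-regulated, where 3.68% of all genes tested were up-regulated and 4.39% down-regulated. In all, 485 genes were up-regulated and 578 down-regulated, against 410 and 1007 with retinas rescaled to equal summed RPKM. The median log2 fold change was 1.97 over the 10 members and -0.11 over all genes. Fold changes were computed on log2(RPKM + 1), so those of weakly expressed genes are understated.

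Gbp2, a prenylated GBP that docks on pathogen vacuoles, had values of 0, 1.91 and 4.41 RPKM (lowest, median and highest) in naïve retinas and of 14.7, 78.7 and 206 RPKM at 4 h. Its log2 fold change was 4.90 ± 0.58 (SE; adjusted p = 2.5e-07 in limma), which ranked 38th from the top among all genes tested. The lowest 4 h retina was thus above the highest naïve one. Gbp5, also prenylated and linked to inflammasome assembly, was at or below 1.14 RPKM in every retina outside 4 h. Naïve values were 0, 0.436 and 1.14 RPKM and 4 h values were 5.36, 25.6 and 43.6 RPKM (log2 fold change 3.87 ± 0.35 SE, adjusted p = 1.5e-09). Gbp5 reached 1 RPKM in 6 of 6 retinas at 4 h and in 1 of the other 22, so it was tested because of its 4 h level. Gbp3 had 0, 1.15 and 2.85 RPKM in naïve retinas and 5.67, 12.4 and 29.3 RPKM at 4 h (log2 fold change 2.83 ± 0.42 SE, adjusted p = 1.5e-05). These 3 genes were DEGs in all 15 alternative analyses and with any single retina left out, and non-overlap of this kind was seen for 1.65% of all genes tested. The fourth member of the cluster, Gbp7, which helps to assemble the phagocyte oxidase, ranged from 2.84 to 33.1 RPKM in naïve retinas and from 1.07 to 36.3 RPKM at 4 h. Its log2 fold change of 0.28 (95% confidence interval -0.93 to 1.49, adjusted p = 0.84) did not pass the test.

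Among the regulator IRGs, Irgm1, which also acts in mitochondrial quality control and autophagy, was a DEG at 4 h (log2 fold change 1.20 ± 0.38 SE, adjusted p = 0.041). Its values were 7.70, 12.2 and 23.7 RPKM in naïve retinas and 9.93, 34.7 and 95.8 RPKM at 4 h, and 4 of the 6 4 h retinas lay above all naïve ones. This call was lost in 7 of 15 alternative analyses and on leaving out any 1 of 9 retinas (naïve retinas 1, 5, 6, 8 and 9 and 4 h retinas 1, 2, 3 and 5), with adjusted p up to 0.18. Igtp (log2 fold change 0.94, interval -0.38 to 2.27, adjusted p = 0.45) and Irgm2 (-0.12, interval -1.24 to 1.00, adjusted p = 0.94) did not pass. Irgm2 had the lowest median of the 10 members at 4 h, 7.33 RPKM against 6.66 RPKM in naïve retinas, and no 4 h value was above the naïve range.

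Iigp1, Ifi47 and Tgtp2, the effector IRGs, were not DEGs at 4 h in the analysis as reported. Iigp1 (chr18:60376027-60392634), an effector that coats and ruptures parasite vacuoles, had a median of 3.63 RPKM in naïve and 17.8 RPKM in 4 h retinas, but its 4 h values ran from 1.08 to 121 RPKM (log2 fold change 2.36, adjusted p = 0.064). Without 4 h retina 1, where it was lowest, it was a DEG (2.95, adjusted p = 0.019). This was also the case without naïve retina 5, 4 h retina 6 or 18 h retina 4, and in 3 of 15 alternatives (a pseudocount of 10, a replicate block and quantile normalisation, adjusted p of 0.020, 0.0046 and 0.040). The 4 h values of Ifi47 spanned 6.49 to 42.7 RPKM (log2 fold change 1.99, interval 0.43 to 3.56, adjusted p = 0.11), and it was a DEG in 2 of 15 alternatives, with a replicate block (0.017) and quantile normalisation (0.049). Those of Tgtp2 spanned 6.84 to 415 RPKM (1.95, interval -0.01 to 3.92, adjusted p = 0.25). In each of the 3 genes the 4 h and naïve ranges overlapped.

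**Figure D2:**
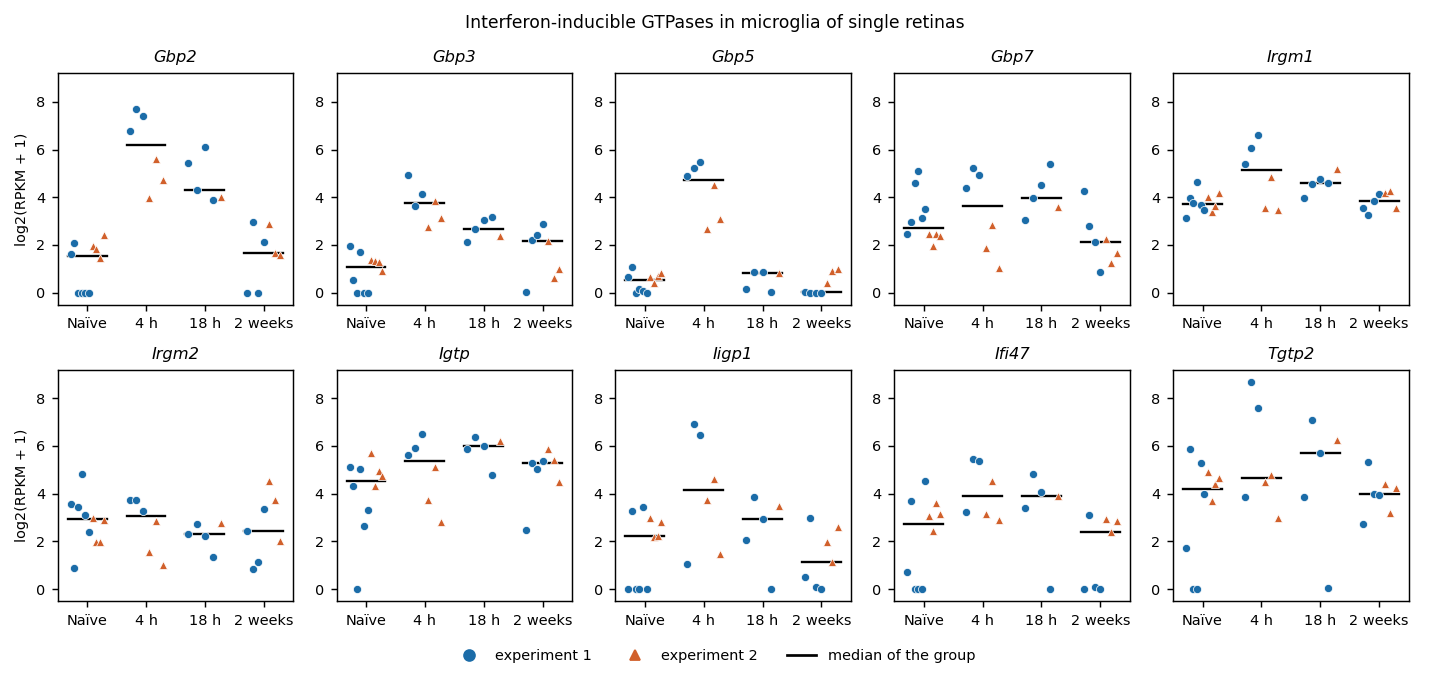
Level of each GTPase gene, as log2(RPKM + 1), in every retina by group, with experiment 1 as blue circles, experiment 2 as orange triangles and the group median as a black line. Gbp2, Gbp3 and Gbp5 separate completely between naïve and 4 h, and at 4 h the retinas of experiment 1 lie above those of experiment 2 for 6 of the 10 genes.

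The members were also ordered by their median level at each time. RPKM is corrected for transcript length, so members can be compared in that respect. Their levels still depend on how shared reads were divided, most of all for Tgtp2, which also enters the summed RPKM below. In naïve retinas the highest medians were those of Igtp (22.3 RPKM), Tgtp2 (17.5 RPKM) and Irgm1 (12.2 RPKM), and the 3 lowest were those of Gbp2, Gbp3 and Gbp5. At 4 h Gbp2 had the highest median (78.7 RPKM) and Gbp5 the fourth highest (25.6 RPKM). At 18 h and 2 weeks Igtp, Tgtp2 and Irgm1 again led. Neighbours in these orders had overlapping ranges in all 9 pairs in naïve, 4 h and 2-week retinas and in 8 of 9 at 18 h, where Irgm2 lay above Gbp5 in every retina. The 4 GBPs made up a median of 11.4% of the summed RPKM of the 10 members in the naïve group. This share was 36.2% at 4 h and 33.9% at 18 h, and at 2 weeks it was 11.2%. The ranges overlapped, at 7.73 to 51.1% in naïve and 28.9 to 60.1% in 4 h retinas. They were 12.1 to 55.2% at 18 h and 5.44 to 41.5% at 2 weeks. Naïve retina 3, 18 h retina 4 and 2-week retina 1 had the highest shares of their groups. Few genes were detected in each of them.

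At 18 h, 2 of 10 members were DEGs, both up-regulated GBPs, where 2.84% of all genes tested were up-regulated. Gbp2 had 42.0, 19.0, 68.5, 13.6 and 15.2 RPKM in the 5 retinas, all above the naïve maximum of 4.41 RPKM (log2 fold change 3.61 ± 0.61 SE, limma adjusted p = 2.7e-04). Gbp3 had 3.35, 5.28, 7.22, 8.01 and 4.24 RPKM, all above the naïve maximum of 2.85 RPKM (1.77 ± 0.45 SE, adjusted p = 0.015). Such non-overlap was seen for 2.05% of all genes tested. The Gbp2 call was lost in experiment 2 alone (adjusted p = 0.14) and on untransformed RPKM (0.48). The Gbp3 call was lost in 6 of 15 alternatives and without 18 h retina 3 (adjusted p = 0.055). Gbp5, in contrast, had 0.117, 0.815, 0.826, 0.0265 and 0.773 RPKM at 18 h, within the naïve range. The median log2 fold change was 1.06 over the members and -0.08 over all genes.

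The IRGs did not pass the test at 18 h. Igtp came closest, with 58.1, 82.1, 63.4, 26.1 and 73.1 RPKM against a naïve range of 0 to 50.5 RPKM (1.84, interval 0.43 to 3.25, adjusted p = 0.13), and 4 of 5 retinas lay above all naïve ones. Without the 4 retinas in which fewer than 7500 genes reached 1 RPKM (naïve 3 and 4, 18 h 4, 2 weeks 1), an alternative chosen after seeing the data, Igtp was a DEG (1.74, adjusted p = 0.046). It was also a DEG on untransformed RPKM (adjusted p = 0.039). The values of 18 h retina 4 stood apart in both directions. It had the highest Gbp7 of the group (41.5 RPKM), while Iigp1 and Ifi47 were listed at 0 and Tgtp2 was at 0.0167 RPKM.

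Markers of other cells moved at the same time. The summed level of 9 T and NK cell markers was at most 0.658 RPKM in naïve and 0.233 RPKM in 4 h retinas. It lay between 7.55 and 121 RPKM at 18 h. The only 1 of the 9 past the filter, Nkg7, was a DEG at 18 h (log2 fold change 4.36, adjusted p = 2.0e-10). It was listed at 0 in all naïve and 4 h retinas and was at most 0.907 RPKM at 2 weeks. Nkg7 was thus tested because of its 18 h level, so a difference at 18 h was built into its selection. None of the 9 was at 0 in every 18 h retina, but 8 of them had a median under 1 RPKM there. Most of the sum was Nkg7 in every 18 h retina. The 6 monocyte markers summed to between 0.228 and 49.5 RPKM at 18 h and to at most 3.16 RPKM in naïve, 15.5 RPKM in 4 h and 26.6 RPKM in 2-week retinas. The 4 h maximum was in retina 2, which had the highest Gbp2, Iigp1, Ifi47 and Tgtp2 of that group, and in the other 5 retinas the sum was at most 2.99 RPKM. Of the 7 microglial markers, 3 were down-regulated DEGs at 4 h (P2ry12, Cx3cr1 and Aif1) and 4 at 18 h (P2ry12, Siglech, Csf1r and Fcrls). Of the 13164 genes tested, 578 were down-regulated at 4 h and 244 at 18 h.

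RNA of further cell types was also measured. The 7 neutrophil markers summed to at most 83.0 RPKM in naïve, 37.8 RPKM in 4 h and 27.0 RPKM in 18 h retinas, but most of the sum was Csf3r in most retinas. S100a8 and S100a9 were listed at 0 in all 10 naïve retinas and reached 9.24 and 5.15 RPKM at 18 h, where Retnlg reached 0.729 RPKM. The 3 B cell markers summed to at most 0.237 RPKM in any group. RNA of rods was present throughout (4 markers, 195 to 3783 RPKM in naïve and 315 to 3104 RPKM in 4 h retinas), as was that of Müller glia (3 markers, medians of 126 and 88.8 RPKM). The 3 endothelial markers summed to at most 4.10 RPKM, and the 4 erythrocyte markers to at most 43.4 RPKM in naïve retinas. In 4 h retina 5, the highest of experiment 2 for all 10 members, the erythrocyte sum was 735 RPKM, and in the other 5 4 h retinas it was 13.9 to 38.2 RPKM. The part of other cells in the GTPase values was not tested, and in these bulk samples fewer cells of a type and less RNA per cell cannot be told apart.

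At 2 weeks 0 of 10 members were DEGs in limma, and 0 of 10 had an unadjusted p under 0.05. Over all genes tested, 0.0076% were DEGs and 2.87% had an unadjusted p under 0.05. Gbp2 ranged from 0 to 6.89 RPKM, and its log2 fold change from naïve was 0.47 (interval -0.66 to 1.59). The intervals of the 10 members lay between -2.08 and 2.39, and for 8 of them, all but Gbp5 and Irgm1, the interval still held a 2-fold change. Gbp5 had a naïve median of 0.436 RPKM, and on the log2(RPKM + 1) scale even a fall to 0 would be under 2-fold. Its interval therefore cannot decide on a 2-fold fall in RPKM. The largest estimates were a log2 fold change of -0.93 for Gbp7 and 0.84 for Igtp. No member was a DEG at 2 weeks under any alternative.

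**Figure D3:**
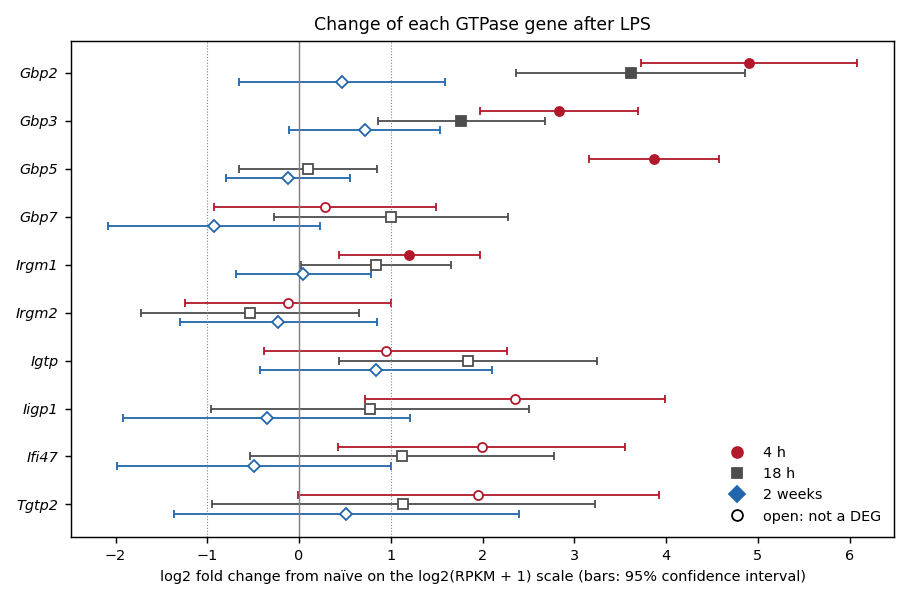
Log2 fold change from naïve, on the log2(RPKM + 1) scale, of each GTPase gene at 4 h (red), 18 h (grey) and 2 weeks (blue), with 95% confidence intervals, filled symbols for DEGs and dotted lines at a 2-fold change in either direction. Filled symbols are Gbp2, Gbp3, Gbp5 and Irgm1 at 4 h and Gbp2 and Gbp3 at 18 h, and the 3 time points share the 10 naïve retinas.

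Gbp5 was lower at 18 h than at 4 h, and Gbp2 was lower at 2 weeks than at 18 h. Between 4 h and 18 h, Gbp5 fell (log2 fold change -3.77 ± 0.41 SE, adjusted p = 1.6e-07), and it was the only 1 of 10 members to pass the test, where 2.51% of all genes tested were down-regulated. Gbp5 was tested only because of its 4 h level, so a difference from 4 h was built into its selection. Each of the 5 retinas at 18 h was below the lowest 4 h value of 5.36 RPKM. Gbp2 (-1.29, interval -2.67 to 0.10, adjusted p = 0.36) and Gbp3 (-1.06, interval -2.07 to -0.05, adjusted p = 0.27) did not pass. Between 18 h and 2 weeks, Gbp2 fell (-3.15 ± 0.66 SE, adjusted p = 0.0044), the only member of 10, where 1.55% of all genes tested were down-regulated. All 7 values at 2 weeks, at most 6.89 RPKM, were below the lowest 18 h value of 13.6 RPKM. That call was lost with a pseudocount of 0.1 (adjusted p = 0.059), on untransformed RPKM (0.57) and in experiment 2 alone (0.15), which has 1 retina at 18 h. These comparisons share retinas with those above, and the share of all genes tested with values so separated was not counted for either.

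At 4 h the values of several members did not overlap between the 2 experiments. Gbp2 had 109, 206 and 170 RPKM in experiment 1 and 14.7, 48.0 and 25.5 RPKM in experiment 2. Gbp5 had 29.1, 36.8 and 43.6 RPKM in experiment 1 and 5.36, 22.0 and 7.53 RPKM in experiment 2. Neither gene overlapped between the experiments. The same was true of Gbp7 (19.8 to 36.3 against 1.07 to 6.22 RPKM), Irgm1 (41.4 to 95.8 against 9.93 to 27.9 RPKM), Irgm2 (8.54 to 12.4 against 1.00 to 6.13 RPKM) and Igtp (47.8 to 89.8 against 6.06 to 34.2 RPKM). Thus 6 of the 10 members had every experiment 1 retina above every experiment 2 retina at 4 h, against 5.14% of all genes tested. Within experiment 2, retina 5 was the highest of the 3 for all 10 members.

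The effector IRGs varied within experiment 1 itself. Iigp1 was at 1.08, 121 and 87.9 RPKM in its 3 retinas, Ifi47 at 8.39, 42.7 and 39.9 RPKM and Tgtp2 at 13.5, 415 and 194 RPKM. Retina 1 was the low one in all 3 genes. It was not low in every member, since it had the highest Gbp3 (29.3 RPKM) and Irgm2 (12.4 RPKM) of all 4 h retinas.

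Within experiment 1, 7 of 10 members were up-regulated DEGs at 4 h, where 3.94% of all genes tested were up-regulated. These were Gbp2 (log2 fold change 6.69), Gbp5 (4.89), Iigp1 (3.71), Gbp3 (3.54), Ifi47 (3.19), Igtp (2.61) and Irgm1 (2.24), with limma adjusted p from 5.5e-10 to 0.048. The Igtp and Ifi47 calls were each lost in 20 of the 28 fits that left out 1 retina (adjusted p up to 0.20 and 0.21), and Igtp kept its call without naïve retina 1, 2 or 4, 4 h retina 5, 18 h retina 4 or 5, or 2-week retina 1 or 4. Ifi47 kept it without naïve retina 2 or 6, 4 h retina 1, 18 h retina 2, 4 or 5, or 2-week retina 1 or 2. The Iigp1 call was lost without naïve retina 3, 4 or 6 or 4 h retina 2 or 3 (adjusted p up to 0.26). Tgtp2 (3.90, adjusted p = 0.063) passed without naïve retina 2 or 5, 4 h retina 1 or 18 h retina 4.

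Within experiment 2, 2 of 10 were, Gbp2 (2.85, adjusted p = 0.029) and Gbp5 (2.78, adjusted p = 6.8e-05), where 1.25% of all genes tested were. Gbp5 was tested because of its 4 h level, so its place among the 7 and the 2 DEGs is not independent of its selection. With each experiment fitted alone instead, 4 of 10 members were up-regulated DEGs at 4 h in experiment 1 and 3 in experiment 2. The gap between 7 and 2 DEGs thus depended on the fit. The Gbp2 call in experiment 2 was lost without naïve retina 7, 8 or 9 or 4 h retina 5 or 6 (adjusted p up to 0.27). It was also lost in 4 of 10 alternatives and the Gbp5 call in 2. The Gbp5 call was lost with a pseudocount of 10, where the change was under 2-fold (log2 fold change 0.96), and with a replicate block. Replicate numbers 8, 9 and 10 occur only in naïve retinas of experiment 2, so a replicate block fits those retinas exactly. They then carry no weight in the naïve level of experiment 2, so that alternative cannot decide how stable these calls are. Gbp3 had 2.02 (adjusted p = 0.11) and passed without 2-week retina 1 (0.040), with quantile normalisation (0.0041) and without the 4 retinas with few genes (0.017).

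The difference itself was tested as an interaction. The estimate for experiment 2 minus experiment 1 was below 0 for all 10 members, from -1.20 (Irgm2) to -4.23 (Tgtp2), with a median of -2.41 against -0.19 over all genes. Of the 13164 genes tested, 5253 had an estimate above 0. The members were measured in the same retinas, so their estimates are not independent. None of the 10 members passed the test, where 0.0988% of all genes tested did. The lowest adjusted p were those of Gbp2 (-3.84 ± 0.96 SE, adjusted p = 0.17) and Gbp5 (-2.11 ± 0.55 SE, adjusted p = 0.24), and 5 of 10 members had an unadjusted p under 0.05, against 4.71% of all genes tested. With a pseudocount of 10, Gbp2 and Gbp5 passed (adjusted p = 0.0054 each), and without 4 h retina 5, Gbp5 did (adjusted p = 0.021).

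The naïve retinas enter these differences. Naïve retinas of experiment 1 had between 6552 and 11825 genes at 1 RPKM or more and those of experiment 2 between 11129 and 11429, while at 4 h the ranges were 8254 to 10225 in experiment 1 and 9974 to 10441 in experiment 2. In naïve retinas 3, 4, 5 and 6, all of experiment 1, Gbp2 was listed at 0. Without the 4 retinas with few genes, the interaction estimates were -3.53 for Gbp2, -3.19 for Igtp and -2.30 for Irgm1, with adjusted p of 0.17, 0.13 and 0.14, and 6 members were DEGs within experiment 1. Iigp1 and Ifi47 were then no longer DEGs and Gbp7 was (1.83, adjusted p = 0.015). The part of the number of genes detected in the difference between the experiments was not tested beyond this.

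**Figure D4:**
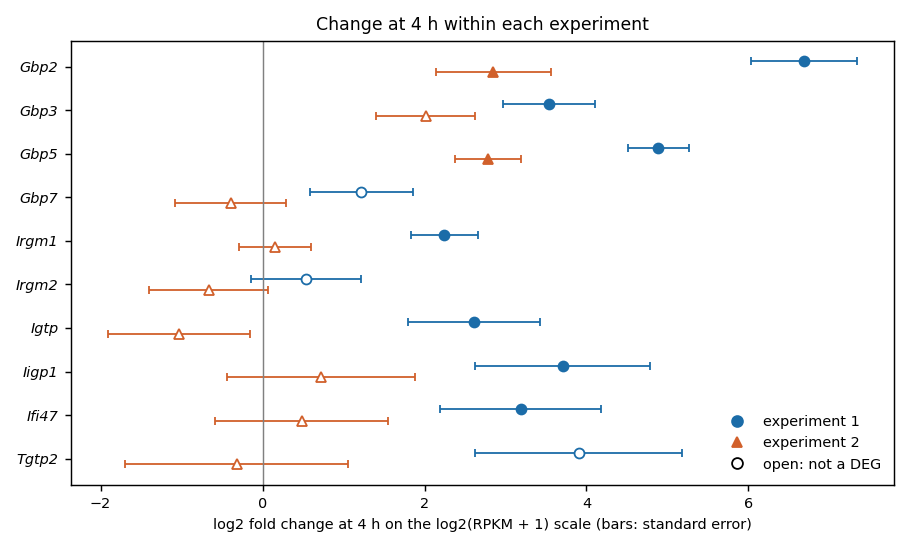
Log2 fold change at 4 h from naïve, on the log2(RPKM + 1) scale, of each GTPase gene within experiment 1 (blue circles) and experiment 2 (orange triangles), with standard errors and filled symbols for DEGs. The experiment 1 estimate is the higher for all 10 genes, and the interaction passed the test for none of them. Of the 13164 genes tested, 5253 had the higher estimate in experiment 2.

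The interferon pathway gave values on both sides of this difference. Ifnb1, interferon beta itself, was up-regulated at 4 h (log2 fold change 5.64, adjusted p = 1.1e-06). Outside 4 h it reached 1 RPKM only in naïve retinas 2, 6 and 7 and 2-week retina 5. Like Gbp5, Ifnb1 was thus tested because of its 4 h level. Its 4 h values were 65.2, 9.71 and 26.0 RPKM in experiment 1 and 522, 269 and 307 RPKM in experiment 2, the opposite order to Gbp2 and Gbp5. The interaction for Ifnb1, 3.89, did not pass the test (adjusted p = 0.48). At 18 h Ifnb1 was listed at 0 in all 5 retinas, while Gbp2 and Gbp3 were still DEGs. Ifng, interferon gamma, was listed at 0 in all 28 retinas. Only sorted tdTomato-bright cells were sequenced, so Ifng RNA in other cells of the eye was not measured. At 4 h, 3.68% of all genes tested were up-regulated and 4.39% down-regulated. Of the 13 genes of the interferon signalling list tested, 4 were up-regulated at 4 h and none was down-regulated. Besides Ifnb1 these were the kinase Jak2 (2.24, adjusted p = 0.0037), the transcription factor Irf1 (2.71, adjusted p = 0.0043) and the feedback inhibitor Socs1 (1.73, adjusted p = 0.013).

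The RNA of Stat2 and Irf9, whose proteins act together on the ISRE, did not pass the test at 4 h, with log2 fold changes of 1.04 (adjusted p = 0.26) and 0.59 (adjusted p = 0.50). The receptors Ifnar1 (0.74, adjusted p = 0.36), Ifnar2 (-0.14, adjusted p = 0.84), Ifngr1 (-1.12, adjusted p = 0.085) and Ifngr2 (-0.02, adjusted p = 0.99) did not pass. Nor did Jak1, Tyk2 and Irf8. At 18 h none of the 13 was a DEG in limma, and 3 had an unadjusted p under 0.05, against 17.5% of all genes tested.

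**Figure D5:**
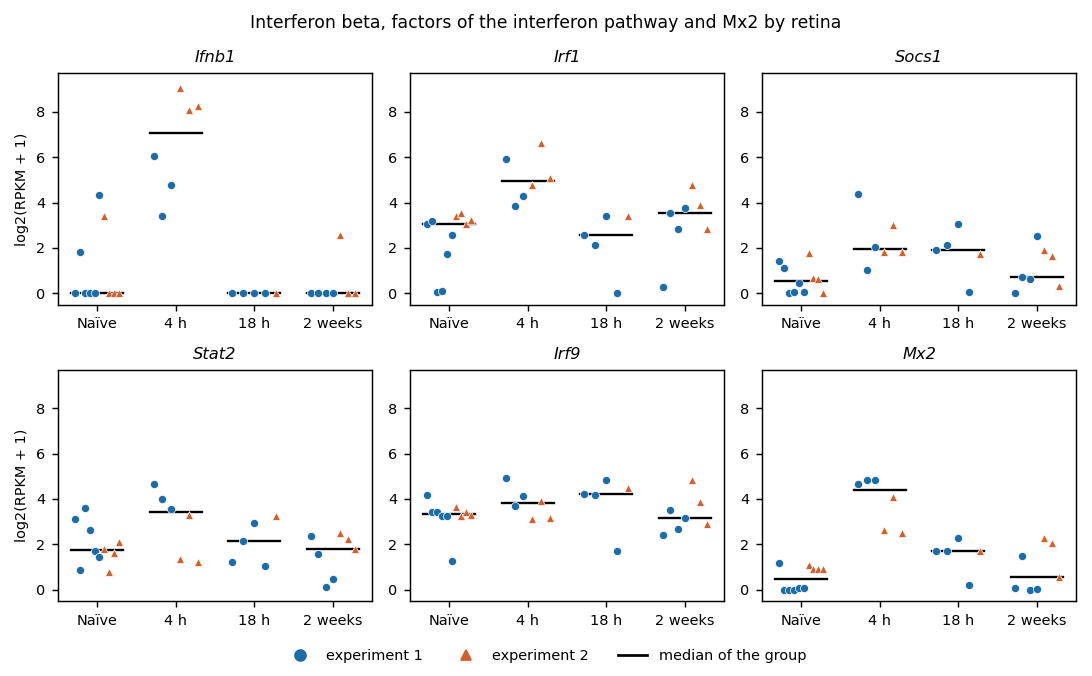
Level, as log2(RPKM + 1), of interferon beta (Ifnb1), the factors Irf1, Stat2 and Irf9, the inhibitor Socs1 and the GTPase gene Mx2 in every retina by group, with experiment 1 as blue circles, experiment 2 as orange triangles and group medians as black lines. At 4 h Ifnb1 is higher in the 3 retinas of experiment 2 and Mx2 in the 3 of experiment 1. Of all genes tested, 5.14% had every experiment 1 retina above every experiment 2 retina, and the share in the other direction was not counted.

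Other interferon-inducible GTPases gave a mixed picture. Of the 3 further GBPs past the filter, Gbp6 was up-regulated at 4 h (2.00, adjusted p = 0.0021) and 18 h (1.67, adjusted p = 0.029), with 4 h values from 0.607 to 18.3 RPKM. Of the 7 further IRGs, only Tgtp1 was a DEG at 4 h (1.84, adjusted p = 0.014), where 3.68% of all genes tested were up-regulated. Its reads are largely shared with Tgtp2. Outside 4 h Tgtp1 reached 1 RPKM only in 18 h retinas 2 and 5 and 2-week retina 1. It was thus tested because of its 4 h level. The IRG Gm12250 had log2 fold changes of 2.24 at 4 h and 2.18 at 18 h (adjusted p of 0.065 and 0.13) and did not pass. Mx2 (3.41, adjusted p = 8.7e-07) and Mx1 (2.53, adjusted p = 0.0058), dynamin-like antiviral GTPases, were up-regulated at 4 h, whereas the giant GTPases Gvin1, Gm4070 and Gm1966 had log2 fold changes of -1.06, -0.58 and -0.76 and did not pass. Mx2 at 4 h was at 24.5, 27.8 and 28.0 RPKM in experiment 1 and at 5.15, 15.8 and 4.72 RPKM in experiment 2.

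GTPases of the same fold that do not answer to interferon, the dynamin, mitofusin, OPA1 and atlastin genes, gave no DEG among 7 at 4 h or 18 h. Their 4 h log2 fold changes lay between -0.66 and 0.47, with 0 of 7 at an unadjusted p under 0.05 at 4 h and 1 of 7 at 18 h. Over all genes tested these shares were 20.5% at 4 h and 17.5% at 18 h. The 10 genes of the ATG8 conjugation system, which loads IRGs and GBPs onto vacuoles, had 4 h log2 fold changes between -0.52 and 0.84, and the 5 prenylation genes between -0.39 and 0.35. Neither list held a DEG at 4 h or 18 h, and 0 of 10 and 0 of 5 had an unadjusted p under 0.05 at 4 h.

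The inflammasome list, into which GBPs feed, held 4 DEGs among 8 genes at 4 h. Il1b (8.91, adjusted p = 1.2e-11), the LPS sensor Casp4 (2.46, adjusted p = 4.2e-05) and Nlrp3 (1.79, adjusted p = 0.0057) were up-regulated, and the adaptor Pycard was down-regulated (-1.94, adjusted p = 2.9e-04). At 18 h only Il1b was a DEG (2.56, adjusted p = 0.024), where 2.84% of all genes tested were up-regulated. Casp4 had 27.5, 77.4 and 52.5 RPKM at 4 h in experiment 1 and 29.3, 36.3 and 22.9 RPKM in experiment 2. Il1b had 905, 457 and 320 RPKM in experiment 1 and 874, 3968 and 1013 RPKM in experiment 2.

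The members did not move as one block. Over the 28 retinas, the 45 pairs of members had Pearson correlations of log2(RPKM + 1) between -0.09 and 0.85 (Iigp1 with Tgtp2), with a median of 0.46. Gbp2 with Gbp3 (0.84) and Gbp2 with Gbp5 (0.77) followed. Once group means were removed the median was 0.37, and Iigp1 with Tgtp2 was again the highest (0.85). All retinas share library effects such as the number of genes detected, so these are descriptions. Ranked by Pearson correlation with the mean standardised profile of the 10 members over the 28 retinas, the 5 nearest of 13154 other genes were Ambp (0.894), Rsad2 (0.894), Ifit1 (0.894), Fam26f (0.889) and Ifi205 (0.878). With group means removed their correlations were between 0.748 and 0.830. Rsad2 and Ifit1 are antiviral genes that interferon induces. Ifit1 had medians of 2.68, 206, 71.4 and 4.05 RPKM in naïve, 4 h, 18 h and 2-week retinas. Mx2 ranked ninth (0.871), whereas Ifnb1 (0.383) ranked 1309.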

How the data were processed

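Poly(A) RNA of microglia sorted from 28 single retinas was amplified with SMART-Seq v4 and made into libraries with Nextera XT. Per the submitters' processing notes and the study's methods, the authors converted base calls with bcl2fastq 2.20, trimmed reads, aligned them to mm10 with STAR 2.5.3a, quantified Ensembl transcripts in Partek by expectation-maximisation, a method in which reads of similar genes are apportioned, and deposited RPKM values and the number of alignments per retina. Whole reads cannot be recovered from these values. The authors also deposited tables of their own 4 h and 18 h comparisons, with p-values, ratios of means, fold changes and F statistics, which were not used.

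Groups came from the labels. RPKM were analysed as log2(RPKM + 1) for genes with at least 1 RPKM in at least 5 retinas, in 1 limma 3.58.1 fit (R 4.3.3) of the 4 groups over all 28 retinas, with the variance prior following expression and Benjamini-Hochberg adjustment over 13164 genes. Experiment values came from a fit of 8 cells of group by experiment. A single pair of retinas shared at most 2 identical values above 0. The test was checked on simulated data. Named genes were the members, listed pathway genes that were DEGs or are ligands, receptors or factors of the interferon pathway, and the 5 nearest genes. The members, lists and tests were chosen with earlier results of these data known. Marker lists of neutrophils, monocytes, T and NK cells, B cells, rods, Müller glia, endothelium and erythrocytes were summed per retina. The alternatives were other pseudocounts (0.1 and 10), a filter at 5 RPKM or none, experiment or eye as a covariate, a replicate block, only the groups compared, 1 experiment alone, rescaling to equal summed RPKM, quantile normalisation, no trend, untransformed RPKM, each retina left out and, chosen after seeing the data, leaving out the 4 retinas with few genes. A few genes of the lists are not reported here. Promoters were from RefSeq (GRCm38.p6) and positions from GENCODE M21. The Iigp1 promoter and protein sequences were not used here.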

Additional observations from a re-analysis of the deposited data

Results flagged for a closer look

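Of 40 groups of values, 10 genes in each of 4 groups, 1 held a retina far from the others. Igtp was at 4.55 RPKM in 2-week retina 1, while the next lowest of the 7 retinas was at 21.6 RPKM. On the log2(RPKM + 1) scale this gap was 0.598 of the whole range of the group. This was among the 4 retinas with fewer than 7500 genes at 1 RPKM or more (6644 genes). Chance alone marks about 1 in 20 groups in this way, and the part of the low number of genes was not tested.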

How the results depend on the processing

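The 4 DEGs at 4 h were 3 to 6 across the alternatives and 3 to 5 with each retina left out, and no call reversed. They were 4 in experiment 1 alone and 3 in experiment 2 alone. At 18 h the 2 DEGs became 1 with a pseudocount of 10, a replicate block, experiment 1 alone, equal summed RPKM or untransformed RPKM and 0 in experiment 2 alone (1 to 2 with a retina left out, 1 without 18 h retina 3). From 4 h to 18 h the 1 DEG became 2 on untransformed RPKM (1 to 1). From 18 h to 2 weeks the 1 DEG became 0 with a pseudocount of 0.1, in experiment 2 alone and on untransformed RPKM (1 to 1). At 2 weeks the count was 0 throughout (0 to 0). The interaction count of 0 became 2 with a pseudocount of 10 (0 to 1, 1 without 4 h retina 5). Within experiment 1 the 7 DEGs at 4 h became 4 with a pseudocount of 0.1, no filter or a replicate block (4 to 8, 4 without naïve retina 3 or 4 h retina 2 or 3). Within experiment 2 the 2 became 1 with pseudocounts of 0.1 or 10, no filter or equal summed RPKM and 0 with a replicate block (1 to 3, 1 without naïve retina 7, 8 or 9 or 4 h retina 5 or 6). The causes were not tested, beyond the fewer retinas in the fits of 1 experiment. With a replicate block, naïve retinas 8, 9 and 10 carry no weight, since no other group has their numbers. With equal summed RPKM, the median log2 change over all genes tested was -0.28 at 4 h and -0.26 at 18 h, against -0.11 and -0.08 as reported. The replicate numbers were not used to pair the retinas in the analysis as reported. Of 34 same-number pairs 15 had r over 0.1, with a highest r of 0.70, and 7 of 25 retinas correlated best with their own number. The numbers due to chance were not computed, so this check cannot show whether retinas were paired.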
